A study of Mus musculus with 6 samples.

Results

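The enzymes described here write or erase the histone marks of enhancers and of Polycomb-silenced genes, and their RNA was measured in endothelial cells, the cells that line blood and lymph vessels, sorted by flow cytometry from mouse lung. The 9 genes are the acetyltransferases Ep300 and Crebbp, the histone H3 lysine 4 methyltransferases Kmt2c and Kmt2d, the lysine 4 demethylase Kdm1a, the lysine 27 demethylases Kdm6a and Kdm6b, and the lysine 27 methyltransferases Ezh1 and Ezh2. They were taken by symbol from a table of 24520 genes, and all 9 were found. The samples were 3 libraries from mice aged 18 months and 3 from mice aged 8 months, all wild-type and given no treatment other than age in the labels. The study as a whole concerns DNA methylation by DNMT3A and endothelial enhancers, and these libraries address how RNA levels differ with age. The labels do not say whether libraries of 1 age came from separate mice, how many mice went into each, or which surface markers were used for the sort, so the p-values reflect how far these libraries scatter, and that scatter may be technical.

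Enhancers in use carry monomethylated lysine 4 of histone H3, set by KMT2C and KMT2D and removed by LSD1 (the product of Kdm1a), and acetylated lysine 27, set by p300 (Ep300) and CBP (Crebbp). The same lysine 27 can instead be methylated by EZH1 or EZH2 within Polycomb repressive complex 2 (PRC2), a mark of silenced genes that UTX (Kdm6a) and JMJD3 (Kdm6b) remove. EZH2 is known for its high level in dividing cells, and EZH1 for its persistence in cells that have stopped dividing.

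Values are TPM (transcript abundances scaled to a fixed total), which are relative to length and to the sum over a library, so levels of different genes can be set side by side. They carry no read depth, so the counting error is unknown and their precision cannot be given. Endothelial identity genes such as Pecam1 and Cdh5 were abundant, with 10 markers summing to 12350 to 13170 TPM at 18 months and 13350 to 14710 TPM at 8 months. RNA of other lung cells was present too. Sums of 11 epithelial markers, which include the surfactant gene Sftpc and the club cell gene Scgb1a1, were 9537 to 19290 TPM at 18 months and 11070 to 20230 TPM at 8 months. The 12 macrophage and monocyte markers summed to 962.5 to 1781 TPM at 18 months and 647.3 to 1823 TPM at 8 months. The 11 measured lymphocyte markers summed to 24.6 to 31.2 TPM at 18 months and 22.9 to 70.5 TPM at 8 months. For 12 fibroblast and mural cell markers the sums were 29.3 to 38.4 TPM at 18 months and 50.6 to 79.8 TPM at 8 months. The sums of the endothelial markers and of the fibroblast and mural markers were lower in every 18-month library. The epithelial, macrophage and lymphocyte sums overlapped between the ages. The third 8-month library was the highest of all libraries in each of these, at 20230, 1823 and 70.5 TPM. The first and second 8-month libraries had epithelial sums of 11070 and 11960 TPM and macrophage sums of 647.3 and 703.0 TPM. Their lymphocyte sums were 26.5 and 22.9 TPM. So the macrophage overlap came from the third 8-month library alone. The epithelial and lymphocyte sums overlapped without it too. None of these markers was at 0 in all libraries, although the macrophage receptor gene Csf1r was listed at 0.745, 0.00242 and 0 TPM in the 18-month libraries, against 0, 0 and 6.41e-06 TPM in the 8-month ones. Of the tested markers, 9 of 10 endothelial, 0 of 11 macrophage, 5 of 8 lymphocyte, 10 of 10 fibroblast and mural and 5 of 9 epithelial genes were lower at 18 months, and none passed the test described below. The share lower at 18 months over all tested genes was 66.2%. Because whole sorted samples were measured, fewer cells of a type and less RNA per cell cannot be told apart, and the part of these cells in the values below was not tested.

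The 9 genes spanned a wide range of levels, in the same order of means at both ages. Ezh1 was highest, followed by Crebbp and Kdm6a. Kmt2c, Kmt2d, Ep300 and Ezh2 lay between about the middle and the lower part of all tested genes, and Kdm1a and Kdm6b were lowest. Ezh1 averaged 90.7 ± 7.70 TPM at 18 months and 98.6 ± 8.64 TPM at 8 months (SD, n = 3 each, as below). Crebbp averaged 55.0 ± 5.47 TPM at 18 months and 60.4 ± 1.92 TPM at 8 months, and Kdm6a 26.0 ± 3.24 TPM at 18 months and 29.3 ± 5.37 TPM at 8 months. Each of these 3 was above the next gene in the order in every library, with no overlap of libraries within an age. Kmt2c and Kmt2d overlapped at 18 months, as did Ep300 and Ezh2, whereas at 8 months neither pair did. Of all tested genes, 87.6% had a mean over the 6 libraries at or below that of Ezh1, 80.7% at or below Crebbp, 65.4% at or below Kdm6a, 47.4% at or below Kmt2c and 10.3% at or below Kdm1a.

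**Figure D1:**
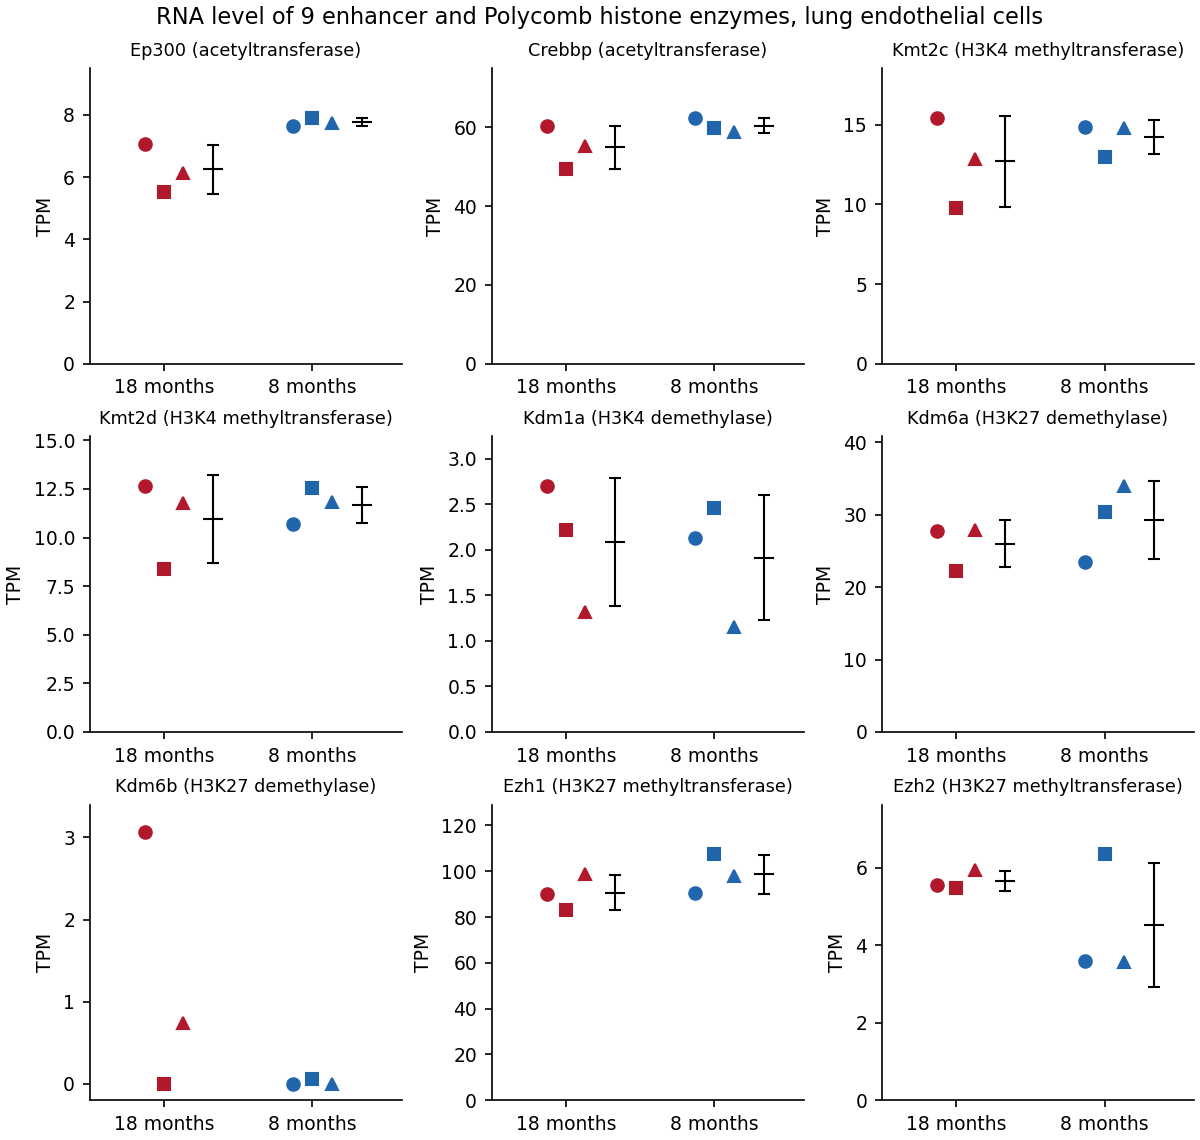
RNA level in TPM of the 9 enzymes, each panel with its own axis, with 3 libraries at 18 months (red, left) and 3 at 8 months (blue, right). Symbols stand for the replicate number of the labels (circle 1, square 2, triangle 3), and black bars give the mean and SD except for Kdm6b, which lay near 0 in 4 of 6 libraries. The 18-month points of Ep300 (5.54 to 7.08 TPM) lie below its 8-month points (7.65 to 7.92 TPM), and the points of the other tested genes overlap.

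No change with age passed the test for any of the 8 enzymes tested. Of these, 6 were lower and 2 higher at 18 months, and none passed (limma moderated test, Benjamini-Hochberg adjustment over 12748 genes, adjusted p under 0.05). The lowest adjusted p was 0.45, for Ep300, and 0 of the 8 had an unadjusted p under 0.05. The background was low as well: 3 of the 12748 genes passed, or 0.0235%. A gene was tested where its TPM averaged 1 or more across all 6 libraries, which left out Kdm6b. The median log2 difference of the 8 enzymes was -0.13 and that of all tested genes was -0.079. Without the second 18-month library these medians were -0.032, with 5 of the 8 lower, and -0.046. Without the first 18-month library they were -0.21 and -0.12. Of all tested genes 66.2% were lower at 18 months, and 75.0% of the 8 enzymes were, so their direction was close to that of the table as a whole. With median-of-ratios scaling, which sets the typical gene equal across libraries, 49.0% of all tested genes and the same number of enzymes, 6 of 8, were lower, with medians of 0.0057 and -0.035. The differences below are of log2(TPM + 1), a scale on which changes of genes near 0 come out too small.

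**Figure D2:**
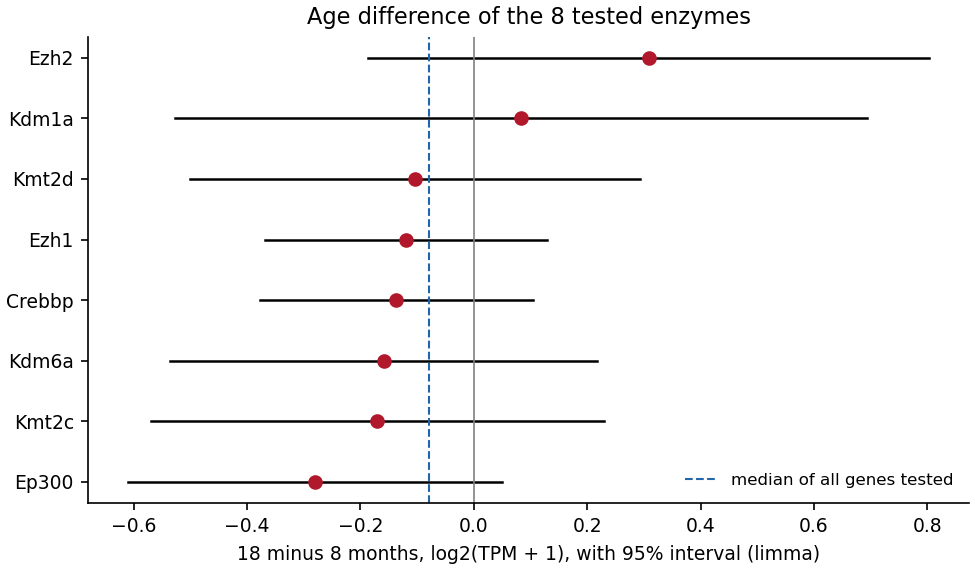
Log2 difference of 18 minus 8 months in log2(TPM + 1) for the 8 tested enzymes (points) with 95% intervals from limma (lines). All 8 intervals include 0 (grey line), and 6 points lie below it. The dashed line marks the median of all tested genes at -0.079.

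Ep300 encodes the acetyltransferase p300. It measured 7.08, 5.54 and 6.13 TPM in the 18-month libraries, against 7.65, 7.92 and 7.74 TPM in the 8-month ones. All 18-month libraries were below all 8-month libraries, the one such separation among the 8 tested enzymes. This pattern was found in 14.2% of all tested genes, and the opposite one, with all 18-month libraries above, in 4.48% and in none of the 8. Ep300 averaged 6.25 ± 0.778 TPM in the older mice and 7.77 ± 0.136 TPM in the younger (SD, n = 3), 0.804 times as high. The log2 difference was -0.28 and its 95% interval ran from -0.61 to 0.049 (limma adjusted p = 0.45). The separation was also present after median-of-ratios scaling, with scaled TPM of 6.91, 6.07 and 6.27 at 18 months, against 7.62, 7.29 and 7.59 at 8 months. The share of all tested genes so separated after this scaling was not counted, and the 14.2% above is of the deposited TPM.

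Crebbp encodes CBP, the paralog of p300 with the same substrate. It measured 60.3, 49.4 and 55.2 TPM in the 18-month libraries, against 62.5, 59.8 and 58.8 TPM in the 8-month ones. The first 18-month library lay within the 8-month range and the other 2 below it. The log2 difference was -0.14 and its 95% interval ran from -0.38 to 0.10 (limma adjusted p = 0.63). It was -0.063 without the second 18-month library and -0.044 with median-of-ratios scaling.

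Crebbp RNA was several times as abundant as Ep300 RNA in each of the 6 libraries. Within a library the ratio of Ep300 to Crebbp was 0.117, 0.112 and 0.111 at 18 months and 0.122, 0.132 and 0.132 at 8 months. So Crebbp made up 89.8 ± 0.271% of the RNA of the pair at 18 months and 88.6 ± 0.439% at 8 months (SD, n = 3). The ratio was lower in all 18-month libraries, by a log2 difference of -0.18 (exact 2-sided permutation test, p = 0.1, the smallest that 3 against 3 libraries allow, adjusted p = 0.15 over the 3 paralog ratios). This ratio draws on the same Ep300 values as the separation above, and how often ratios of other gene pairs separate in this way was not counted. A ratio within a library does not depend on how that library is scaled. Sequence shared with other genes can move estimates between genes. Of the 31-base sequences of Ep300 transcripts 0.803%, and of those of Crebbp 1.51%, also occur in transcripts of other genes. What this does to the levels was not tested.

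Kmt2c and Kmt2d encode the large paralogous methyltransferases of enhancers. Kmt2c measured 15.5, 9.79 and 12.9 TPM in the 18-month libraries, against 14.9, 13.0 and 14.8 TPM in the 8-month ones. Kmt2d measured 12.7, 8.38 and 11.8 TPM in the 18-month libraries, against 10.7, 12.6 and 11.8 TPM in the 8-month ones. In both genes the second 18-month library was the lowest of all 6 and the first 18-month library the highest. The log2 difference was -0.17 for Kmt2c and its 95% interval ran from -0.57 to 0.23 (limma adjusted p = 0.74). It was -0.10 for Kmt2d and its interval ran from -0.50 to 0.29 (limma adjusted p = 0.85). Without the first 18-month library these were -0.31 for Kmt2c and -0.21 for Kmt2d, without the second they were -0.0089 and 0.061, and after correcting for base composition (GC) and length they were -0.069 and 0.090, so Kmt2d then pointed the other way. The pair stayed close in level: the ratio of Kmt2c to Kmt2d was 1.22, 1.17 and 1.09 at 18 months and 1.39, 1.03 and 1.25 at 8 months, with a log2 difference of -0.070 (exact 2-sided permutation test, p = 0.6).

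The promoters of this pair are shown because the genes were expressed at like levels from promoter windows of 88.0% GC in Kmt2c and 62.7% in Kmt2d, and because CG dinucleotides (capitals) are where DNA methyltransferases act. They are the 250 bases before the RefSeq transcript start, 5′ to 3′ on the gene's strand, at chr5:25498784-25499033 for Kmt2c and chr15:98871206-98871455 for Kmt2d (GRCm38.p6, minus strand in both), and neither overlaps an exon of GENCODE M21.
Kmt2c: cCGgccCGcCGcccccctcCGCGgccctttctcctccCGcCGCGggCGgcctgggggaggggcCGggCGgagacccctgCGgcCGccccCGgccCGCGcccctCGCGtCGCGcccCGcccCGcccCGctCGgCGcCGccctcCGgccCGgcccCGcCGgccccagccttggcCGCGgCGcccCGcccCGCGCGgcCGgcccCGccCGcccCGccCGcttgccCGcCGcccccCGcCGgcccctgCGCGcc
Kmt2d: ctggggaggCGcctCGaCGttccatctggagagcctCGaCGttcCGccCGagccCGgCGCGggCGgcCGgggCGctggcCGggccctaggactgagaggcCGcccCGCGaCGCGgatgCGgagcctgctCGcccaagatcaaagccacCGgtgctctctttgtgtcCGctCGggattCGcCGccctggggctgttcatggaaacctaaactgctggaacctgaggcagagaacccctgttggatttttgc
The Kmt2c stretch holds 48 CG and that of Kmt2d 26. In the full windows of 300 bases, which reach 50 bases past the start, the counts were 56 and 27, against a median of 7 over 32817 RefSeq promoter windows. The motif GGGCGG, counted on both strands with overlapping matches allowed, occurred 12 times in the Kmt2c window and 4 times in that of Kmt2d, and 35.6% of all windows hold it at least once. No methylation was measured in these libraries.

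Kdm1a encodes LSD1, which removes methyl groups from lysine 4 of histone H3. It was the lowest of the tested enzymes, at 2.71, 2.22 and 1.32 TPM in the 18-month libraries, against 2.13, 2.46 and 1.15 TPM in the 8-month ones. The third library was the lowest at each age, and the ages overlapped. The log2 difference was 0.083 and its 95% interval ran from -0.53 to 0.69 (limma adjusted p = 0.93). It was -0.063 without the first 18-month library and -0.12 without the third 8-month library.

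Kdm6a encodes the lysine 27 demethylase UTX and lies on the X chromosome (18162575 to 18279936, GRCm38, plus strand). It measured 27.8, 22.2 and 27.9 TPM in the 18-month libraries, against 23.5, 30.4 and 34.0 TPM in the 8-month ones. The first 8-month library lay inside the 18-month range and the other 2 above it. The log2 difference was -0.16 and its 95% interval ran from -0.54 to 0.22 (limma adjusted p = 0.74). Single libraries moved this value in both directions: it was -0.31 without the first 8-month library, -0.047 without the third 8-month library and -0.055 without the second 18-month library. Its Y-linked paralog Uty was at 0.532, 0.321 and 0.459 TPM in the 18-month libraries, against 0.457, 0.448 and 0.323 TPM in the 8-month ones, and 0.82% of the 31-base sequences of Kdm6a transcripts occur in those of Uty.

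Kdm6b encodes JMJD3, the other lysine 27 demethylase. It was listed at 3.07, 4.79e-08 and 0.740 TPM in the 18-month libraries, against 0.000244, 0.0538 and 4.15e-09 TPM in the 8-month ones. So 2 of the 18-month libraries had a level above that of any 8-month library, and 4 libraries lay at or near 0. Its mean of 0.643 TPM over all libraries left it out of the test. From TPM alone a failed estimate and a true low level cannot be told apart, and neither was tested. Values near 0 also occurred for the histone methyltransferase gene Setd1a. It was listed at 0.627 TPM in the first 8-month library and at 5.1e-09 TPM or less in the other 5 libraries. GENCODE M21 holds 2 transcripts of Kdm6b, and an antisense gene on the opposite strand overlaps 4.11% of its exon bases. Whether the counting used strand is not given in the sources used here. For these reasons no fold change and no ratio to Kdm6a is given.

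Ezh1 and Ezh2 encode the alternative catalytic subunits of PRC2, and Ezh1 was by far the more abundant. Ezh1 measured 90.0, 83.3 and 98.7 TPM in the 18-month libraries, against 90.4, 107.6 and 97.7 TPM in the 8-month ones, and the ages overlapped. Its log2 difference was -0.12 and its 95% interval ran from -0.37 to 0.13 (limma adjusted p = 0.69). Leaving out the second 8-month library gave -0.055, leaving out the second 18-month library gave -0.061, and the value was -0.027 with median-of-ratios scaling. Ezh2 measured 5.55, 5.48 and 5.94 TPM in the 18-month libraries, against 3.60, 6.36 and 3.58 TPM in the 8-month ones. Its 18-month libraries were close together and lay between the second 8-month library and the other 2. The log2 difference of Ezh2 was 0.31 and its 95% interval ran from -0.19 to 0.80 (limma adjusted p = 0.59). It was 0.54 without the second 8-month library (limma adjusted p = 0.35), 0.20 without the first 8-month library and 0.19 without the third.

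The ratio of Ezh1 to Ezh2 was 16.2, 15.2 and 16.6 at 18 months and 25.1, 16.9 and 27.3 at 8 months. Every 18-month library was below every 8-month library, though the second 8-month library was close to the 18-month values. The log2 difference was -0.50 (exact 2-sided permutation test, p = 0.1, the smallest possible, adjusted p = 0.15 over the 3 paralog ratios). Without the second 8-month library the difference was -0.71, and over the 6 ways to leave out 1 library it lay between -0.71 and -0.37. How often ratios of other gene pairs separate between the ages was not counted. Ezh1 made up 94.1 ± 0.253% of the RNA of the pair at 18 months and 95.7 ± 1.11% at 8 months (SD, n = 3).

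**Figure D3:**
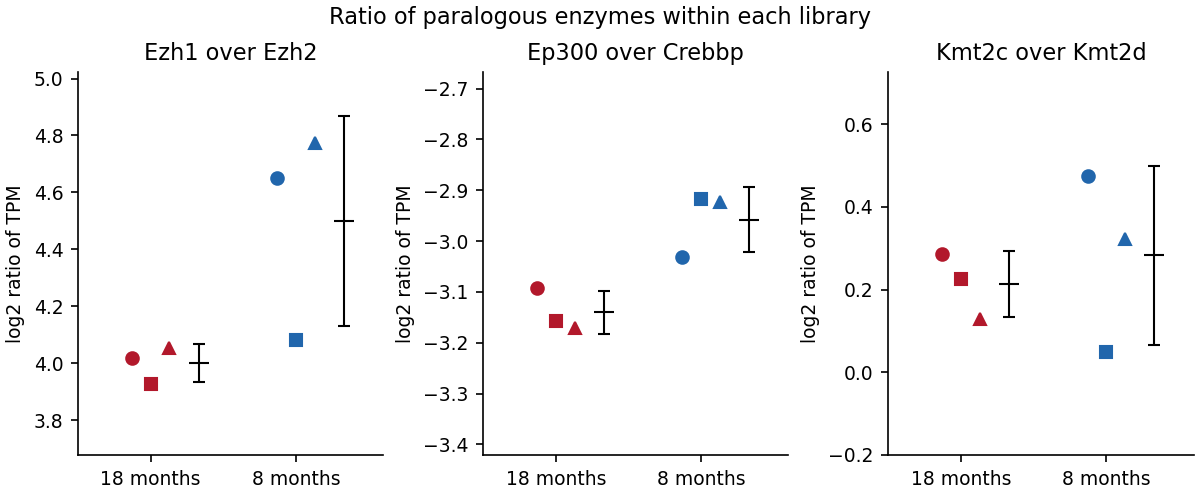
Log2 ratio of TPM between paralogs within each library, at 18 months (red, left) and 8 months (blue, right), with replicate 1 as circles, 2 as squares and 3 as triangles, and the mean and SD in black. Each panel has its own axis, none of which starts at 0. The 18-month ratios lie below the 8-month ratios for Ezh1 over Ezh2 (15.2 to 16.6 against 16.9 to 27.3 on the linear scale) and for Ep300 over Crebbp, and the ratios of Kmt2c over Kmt2d overlap.

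The promoters of the PRC2 pair are shown for the contrast in level between the genes. For Ezh1 they are the 250 bases before the RefSeq start at chr11:101226464-101226713, and for Ezh2 the 125 bases at chr6:47595059-47595183, the longest stretch of its window before the start that lies outside the exons of GENCODE M21 (GRCm38.p6, minus strand in both, 5′ to 3′ on the gene's strand, CG in capitals).
Ezh1: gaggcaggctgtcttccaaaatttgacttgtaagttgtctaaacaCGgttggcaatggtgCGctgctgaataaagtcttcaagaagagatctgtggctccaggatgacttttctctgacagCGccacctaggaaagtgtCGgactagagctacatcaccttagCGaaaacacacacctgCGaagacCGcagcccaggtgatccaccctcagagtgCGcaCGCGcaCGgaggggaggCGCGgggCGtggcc
Ezh2: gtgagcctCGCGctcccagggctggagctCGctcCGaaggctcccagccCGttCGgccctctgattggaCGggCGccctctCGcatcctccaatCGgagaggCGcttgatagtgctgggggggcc
The printed stretches hold 14 and 11 CG. In the full 300-base windows Ezh1 had 23 CG and Ezh2 31, more than the median of 7 over all windows. A form of the E2F motif, TTTGGCGC, which is bound by factors of the cell division programme, occurred 1 time in the full Ezh2 window and 0 times in that of Ezh1, and 0.515% of all windows hold it on either strand. The Ezh2 match is not contained in the 250 bases before the RefSeq start, so it reaches past that start and lies outside the stretch printed. The form TTTCCCGC, held by 1.07% of windows, and the ETS motif CCGGAAGT, held by 3.89%, were in none of the windows of the 8 members that have one in the table.

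Most genes of a cell division list had higher values at 18 months, as Ezh2 did. Of 16 tested proliferation genes 14 were higher and 2 lower, with a median log2 difference of 0.51 against -0.079 for all tested genes. The counts were the same under median-of-ratios scaling. With a mean of at least 5 TPM required, 7 of the genes were tested and 5 were higher, with a median of 0.15, and without the third 18-month library 13 of 15 were higher, with a median of 0.28. None passed over all genes (limma adjusted p of 0.079 or above). The topoisomerase gene Top2a measured 6.61, 3.83 and 5.17 TPM at 18 months, against 0.552, 0.660 and 1.16 TPM at 8 months. The cyclin gene Ccnb2 measured 5.91, 3.78 and 5.18 TPM at 18 months, against 0.538, 0.830 and 1.38 TPM at 8 months. For both, every 18-month library was above every 8-month library, as in 10 of the 16 genes and in 4.48% of all tested genes. Top2a and Ccnb2 averaged 0.792 and 0.915 TPM at 8 months, so they passed the filter of 1 TPM only through the 18-month libraries. Genes that pass in this way can only be higher at 18 months, so the filter itself adds to these counts and this median. With no filter 17 of 19 were higher, with a median of 0.39, against -0.047 for all genes. The proliferation genes summed to 242.4 to 279.1 TPM at 18 months, against 217.9 to 224.0 TPM at 8 months. Much of each sum came from 1 gene, Pcna. It measured 114.1, 114.3 and 126.1 TPM at 18 months, against 108.2, 100.0 and 110.3 TPM at 8 months. The second 8-month library, which had the highest Ezh2 of all 6 libraries, had the sum of 224.0 TPM, below all 18-month libraries. Whether the proliferation genes bear on Ezh2 was not tested.

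The partners of the 9 enzymes were described with 6 lists, and none of the 81 tested genes in them passed the test (lowest limma adjusted p = 0.19). In the deposited TPM 64 of 81 had lower values at 18 months, or 79.0% against 66.2% of all tested genes, with a median log2 difference of -0.088 against -0.079. Rescaling each library to the same sum also left 64 of 81 lower. After median-of-ratios scaling 41 of 81 were lower, with a median of -0.0013, after quantile normalization 43 of 81, with -0.0035, and with the GC and length correction 43 of 81, with -0.0076. Without the second 18-month library 49 of 81 were lower, with a median of -0.037, and without the second 8-month library 51 of 81, with -0.047. The median was -0.18 without the first 18-month library, against -0.12 for all tested genes. In 8 of the 81 genes all 18-month libraries lay below all 8-month libraries, a pattern of 14.2% of all tested genes, and in 0 of the 81 above them. Counts and medians in the next 3 paragraphs are of the deposited TPM. The 2 genes named per list were picked for the smallest unadjusted p in these data, so they are not typical of their lists. All genes so named were lower at 18 months, while 17 of the 81 were higher.

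In PRC2 7 of 8 tested partner subunits were lower, with a median of -0.14, and 6 of 8 with median-of-ratios scaling, with a median of -0.047. With the GC and length correction 7 of 8 were lower, with a median of -0.11, against -0.00093 for all tested genes. The accessory subunit gene Phf1 measured 11.3, 9.62 and 8.01 TPM in the 18-month libraries, against 12.2, 15.7 and 12.3 TPM in the 8-month ones, a log2 difference of -0.44 (limma adjusted p = 0.31). The histone-binding subunit gene Rbbp7 measured 74.5, 55.0 and 63.2 TPM at 18 months, against 75.0, 81.3 and 77.0 TPM at 8 months, with -0.28 (limma adjusted p = 0.38). In both genes all 18-month libraries were below all 8-month libraries. Among subunits of PRC1, the complex that reads and extends Polycomb silencing, 16 of 19 were lower, with a median of -0.17, and 13 of 19 with that scaling. With the GC and length correction 10 of 19 were lower, with a median of -0.020. Leaving out the second 18-month library gave a median of -0.090, against -0.046 for all tested genes. Leaving out the first gave -0.25, against -0.12. The chromodomain gene Cbx6 measured 9.65, 6.55 and 8.36 TPM at 18 months, against 12.2, 14.1 and 12.7 TPM at 8 months, with -0.62 and an interval from -0.99 to -0.24 (limma adjusted p = 0.19). Its paralog Cbx7 measured 3.77, 3.32 and 3.51 TPM at 18 months, against 3.62, 5.65 and 6.18 TPM at 8 months, with -0.42 (limma adjusted p = 0.43) and ages that overlapped.

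Among 13 tested partners and relatives of KMT2C and KMT2D, the MLL and SET1 complexes, 11 were lower with a median of -0.11, and 7 with median-of-ratios scaling. With the GC and length correction 8 were lower, with a median of -0.0076. Men1, which encodes the subunit menin, measured 38.3, 28.3 and 31.9 TPM in the 18-month libraries, against 44.9, 46.2 and 38.4 TPM in the 8-month ones, with -0.39 (limma adjusted p = 0.28). The CpG-binding subunit gene Cxxc1 measured 31.6, 23.3 and 23.6 TPM at 18 months, against 29.3, 36.2 and 33.4 TPM at 8 months, with -0.33 (limma adjusted p = 0.39), and its ages overlapped. Of 13 other acetyltransferases and readers of acetylated histones, 9 were lower with a median of -0.052, which was 0.040 with that scaling and 0.034 with the correction. Kat7, a histone acetyltransferase, measured 47.7, 38.7 and 45.2 TPM at 18 months, against 50.0, 54.2 and 55.2 TPM at 8 months, with -0.27 (limma adjusted p = 0.34), and Kat2a measured 16.8, 15.7 and 13.3 TPM at 18 months, against 18.3, 18.8 and 17.1 TPM at 8 months, with -0.23 (limma adjusted p = 0.48).

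Of 15 tested genes of the corepressors that hold LSD1 and histone deacetylases, 9 were lower and 6 higher, with a median of -0.044, which was 0.046 with median-of-ratios scaling, 0.025 after the GC and length correction, 0.017 when the second 18-month library was left out and 0.034 when the second 8-month library was. Hmg20b, a subunit of the LSD1 complex, measured 27.2, 14.0 and 19.0 TPM in the 18-month libraries, against 23.0, 33.9 and 32.6 TPM in the 8-month ones, with -0.58 (limma adjusted p = 0.36). Rcor3, of the CoREST family that partners LSD1, measured 17.6, 13.4 and 13.3 TPM at 18 months, against 20.7, 15.8 and 16.3 TPM at 8 months, with -0.24 (limma adjusted p = 0.57). Both overlapped between the ages. Of 13 other histone demethylases, 12 were lower with a median of -0.062, which was 0.029 with that scaling, -0.0025 with the correction and 0.0031 when the second 18-month library was left out. The demethylase gene Phf2 measured 3.91, 2.41 and 2.95 TPM at 18 months, against 4.26, 5.03 and 4.72 TPM at 8 months, with -0.48 (limma adjusted p = 0.32), and did not overlap. Kdm4a measured 7.21, 5.29 and 5.87 TPM at 18 months, against 7.16, 10.1 and 8.26 TPM at 8 months, with -0.41 (limma adjusted p = 0.36), and overlapped.

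**Figure D4:**
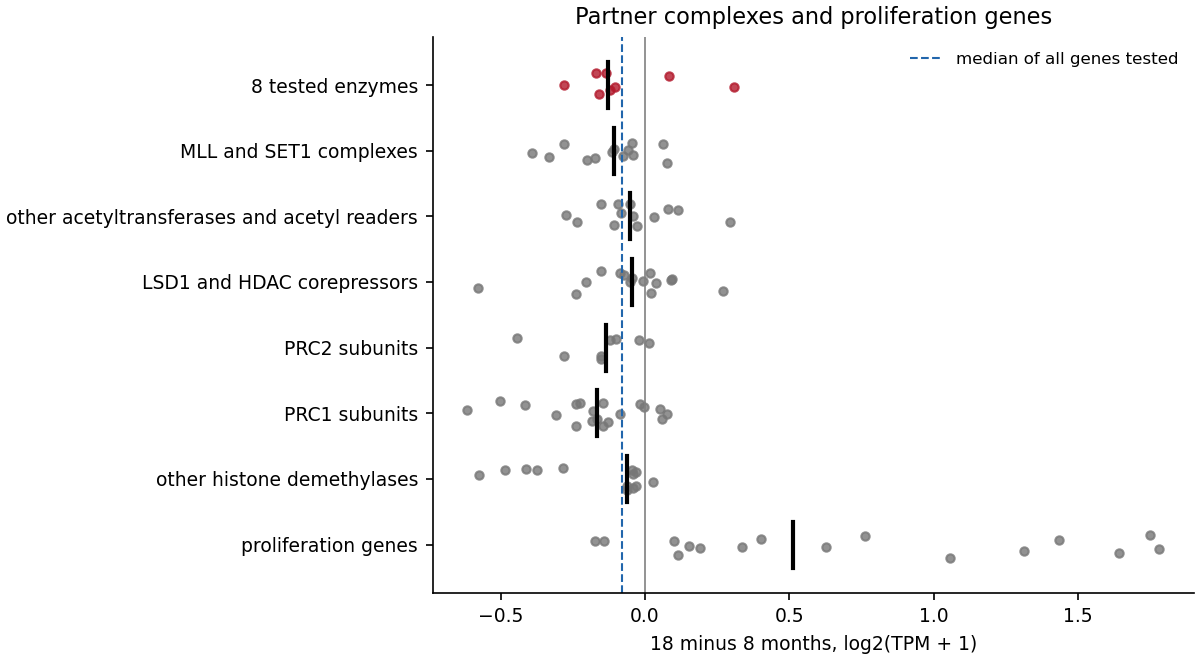
Log2 difference of 18 minus 8 months in log2(TPM + 1) for each tested gene (points) of the 8 enzymes, 6 lists of partner genes and the proliferation genes, with the median of each list as a black bar. Vertical positions within a list are spread for legibility. The medians of the partner lists lie between -0.17 and -0.044, around the median of all tested genes (dashed line, -0.079), 3 of them being above 0 with median-of-ratios scaling, and that of the proliferation genes is 0.51.

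One library was low in many of the enzymes and also in the table as a whole. The second 18-month library held the lowest value in 6 of the 8 tested enzymes, all but Kdm1a and Ezh2. The median of their log2 values, centred per gene, was -0.26 in that library, 0.088 and -0.023 in the other 18-month libraries, and 0.0038, 0.15 and 0.047 in the 8-month libraries. The same median over all tested genes was -0.12 in the second 18-month library, the lowest of the 6 libraries. The share of all tested genes with their lowest value in that library was not counted. After median-of-ratios scaling 4 of the 8 enzymes had their lowest value in it. By the root mean square difference of centred values over the 6 libraries, Ep300 and Crebbp were each other's nearest member, at 0.081. Crebbp was also the nearest member of Kmt2c (0.11), Kmt2d (0.13), Ezh1 (0.12) and Kdm1a (0.30), while Kdm6a was nearest to Kmt2d (0.13) and Ezh2 to Ezh1 (0.27). Among all other tested genes, the 3 nearest to the median pattern of the enzymes were Map3k2 (0.012), Kidins220 (0.022) and Ehmt1 (0.023). The measure is not scaled by spread, so a gene that varies little can be nearest without a shared direction. The age differences of Kdm1a (0.083) and Crebbp (-0.14) had opposite signs, as did those of Ezh2 (0.31) and Ezh1 (-0.12). These names are a description of pattern alone.

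**Figure D5:**
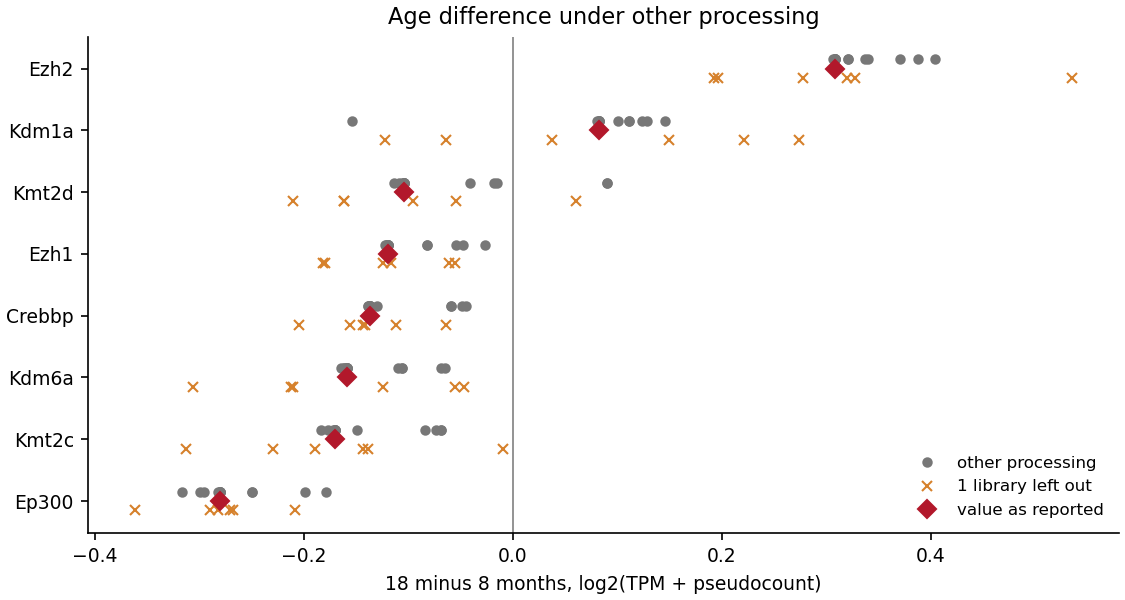
Log2 difference of 18 minus 8 months for each of the 8 tested enzymes as reported (red diamonds), with up to 13 other ways of processing (grey points) and with each of the 6 libraries left out in turn (orange crosses). Ep300 lies between -0.36 and -0.18 and Ezh2 between 0.19 and 0.54, while Kdm1a and Kmt2d have values on both sides of 0.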

How the data were processed

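Per the labels' protocols, RNA of sorted cells was isolated with a PicoPure kit, and 10 ng of total RNA per library went into a SMARTer Ultra Low preparation sequenced as 100 bp paired-end reads. The authors deposited TPM per Ensembl gene, made with kallisto and build mm10 per the submitters' processing notes. For the tool version, transcript set and strand, the sources used here give nothing. Libraries summed to between 869315 and 876126 TPM, and depth is unknown.

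Symbols, positions and transcripts came from GENCODE M21 (GRCm38), which holds 24298 of the 24520 identifiers. Promoter windows are RefSeq's (GRCm38.p6), with 8 of the 9 members matched. In R 4.3.3, limma 3.58.1 fitted log2(TPM + 1) with an intensity trend for 12748 genes, with age as the sole term. Only differences between the ages were tested, 2-sided. Ratios used an exact permutation test (scipy 1.17.1). The test was checked on simulated data with added changes larger than the enzymes' differences over all 6 libraries. That check says nothing of changes as small as theirs. The enzymes and lists were chosen with earlier results of these data known. Genes named are the 9 enzymes and, per partner list, the 2 with the smallest unadjusted p, and the 3 nearest in pattern. Setd1a, Csf1r, Sftpc, Scgb1a1, Pecam1, Cdh5, Pcna and Uty were named outside that rule, after their values were seen. Alternatives were pseudocounts of 0.5 and 0.1, other filters, scalings and limma settings, a replicate block, a GC and length correction (loess, span 0.75), protein-coding genes alone, and each library left out.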

Additional observations from a re-analysis of the deposited data

How the results depend on the processing

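No enzyme passed under any of the 19 alternatives (adjusted p of 0.22 or above), and 145 of 151 values kept their direction. The 6 others were Kdm1a with array weights (-0.15) and in its range with 1 library left out (-0.12 to 0.27), and Kmt2d with the GC and length correction (0.090, also 0.090 with the replicate block added) and in its range with 1 library left out (-0.21 to 0.061). The Kmt2c to Kmt2d ratio ranged from -0.19 to 0.027 with 1 library left out. The cause was not tested. Of all genes, 3 passed as reported, 0 with no filter (669 higher and 1534 lower at an unadjusted p under 0.05), 16 with quantile normalization, 94 with array weights, 28 among protein-coding genes and 0 to 2 with 1 library left out. Of the partner and proliferation genes, 0 passed as reported, 2 with quantile normalization (Top2a and Ccnb2), 5 with array weights and 4 among protein-coding genes, all of them proliferation genes. With the replicate number as a block 0 genes passed (422 higher and 1023 lower at an unadjusted p under 0.05), also with the GC and length correction added. The labels do not say that numbers pair libraries. Deviations of same-numbered libraries from their age means correlated at -0.012, -0.090 and 0.057. Such deviations cancel out within each age, so these values cannot decide whether the numbers mark pairs. The Ezh1 to Ezh2 ratio with the block gave p = 0.25, the smallest an exact sign-flip permutation test of 3 pairs allows. Kdm1a was left out by the filter of 5 TPM. The Kdm6a to Kdm6b ratio was not run because Kdm6b lay near 0.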
